A study of Arabidopsis thaliana with 14 samples.

Results

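The 28 Arabidopsis thaliana genes described here had more transcript in dark-grown seedlings of det2, a mutant labelled as deficient in brassinosteroids (BR), than in green det2 or in dark-grown wild type. They were chosen from group means of log2(signal + 16). The mean of dark-grown det2 had to exceed light-grown det2 by at least 3 and dark-shifted green det2 by at least 3, which is 8-fold on that scale, and dark-grown wild type (Col) by at least 1, which is 2-fold. The mean signal over the 14 arrays had to reach 50. Of 17788 probe sets with that mean, 61 met the 3 differences. Of these, 5 were organelle-encoded and 7 were genes left out by name, while 21 have no gene listed here, so their place in the genome is not known and they were counted apart. The remaining 28 are nuclear, each with 1 gene.

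DET2 encodes a steroid reductase of the brassinosteroid pathway. Dark-grown wild-type seedlings are etiolated, with a long hypocotyl and closed, pale cotyledons, whereas det2 stays short and opens its cotyledons in darkness. Etiolated seedlings live on seed reserves. Transcripts of seed maturation, such as those of storage proteins and late embryogenesis abundant (LEA) proteins, which protect the drying embryo, are normally lost as a seedling becomes established.

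Total RNA was measured in 7 groups of 2 arrays. The 3 det2 groups were seedlings aged 7 days grown in the dark, seedlings aged 7 days grown in light, and seedlings aged 14 days grown in light and then kept for 8 h in the dark. The 4 Col groups were aged 7 days and grown in the dark, either untreated or treated with brassinolide (BL, the most active brassinosteroid, which the labels also call BR), and each of these was also sampled after 2 h of light. The sources used here give neither the det2 allele nor the BL dose or light intensity. Nothing in the labels says that the 2 arrays of a group came from separate cultures, so the spread between them may be technical. In such whole-seedling RNA, fewer cells of a type and less RNA per cell cannot be told apart. The median signal of an array lay between 187.85 and 218.6 units. Of 13 marker genes for green tissue, 8 had a named probe set with a mean of at least 50, and their summed signal was 20135.1 and 27496.1 in dark-grown Col, 45927.6 and 48638.1 in dark-grown det2, and 95138.7 and 98498.6 in light-grown det2. Dark-shifted det2 had sums of 64000.5 and 65693.4. In this sum the dark-grown det2 seedlings thus stood between etiolated Col and green det2. LHCB4.3 did not follow it, with means of 698.6 units in dark-grown, 502.0 in light-grown and 301.8 in dark-shifted det2. The 2 measured root hair genes, EXPA7 and EXPA18, had a median det2 minus Col difference in the dark of -1.68 (log2). The part of these marker differences in the results was not tested.

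The wild-type arrays of a group differed from each other in most of these genes. In dark-grown Col, replicate 2 was above replicate 1 for 25 of the 28 genes, with a median gap of 1.29 (log2), against a median of -0.06 over all 17788 probe sets. BL-treated dark Col showed the same order in 25 of 28 (median 1.37), and the groups moved to light in 21 (0.33) and 23 (0.75). Replicate 2 was the higher array in all 4 wild-type groups for 17 of the 28 genes, against 13.5% of all probe sets. In dark-grown det2 the median gap was 0.00, with 14 of 28 higher in replicate 2. For most members, a value that involves dark-grown Col therefore depends on which of its arrays is used.

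**Figure D1:**
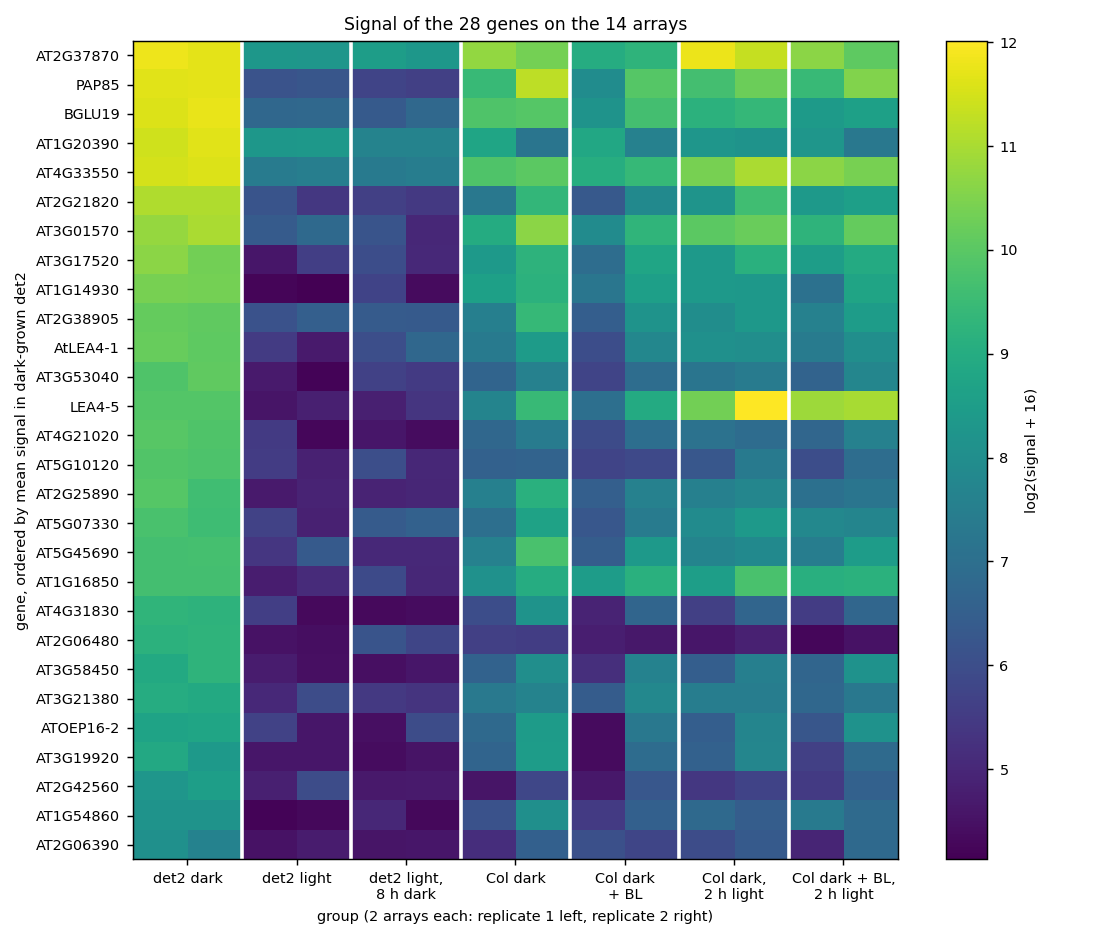
Colour gives log2(signal + 16) for each of the 28 genes (rows, ordered by mean signal in dark-grown det2) on each of the 14 arrays (columns, replicate 1 left and replicate 2 right within a group). For 18 genes all 8 wild-type columns are brighter than all 4 green det2 columns, and for 23 genes both dark-grown det2 columns are the brightest of all, with replicate 2 of dark-grown Col brighter than replicate 1 for 25 genes.

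In the rule's own values, which are a description, the median difference was 4.46 (log2) from light-grown det2, 4.27 from dark-shifted det2 and 1.67 from dark-grown Col. The signal in dark-grown det2 ran from 218.15 to 3433.7 units with a median of 922.8. In light-grown det2 the median was 21.175 and 11 of the 28 genes were under 16 units, the constant added before taking logs, so that the constant limits their fold. Both dark-grown det2 arrays were above both dark-grown Col arrays for 26 of the 28 genes (37.6% of all probe sets) and above all 12 other arrays for 23 (10.7% of all probe sets). The rule shapes these counts, so nothing is read from them.

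The transcripts were not restricted to dark-grown det2. Dark-grown Col was above light-grown det2 by a median of 2.64 (log2), and by at least 1 for 26 of the 28 genes. Both dark-grown Col arrays were above all 4 green det2 arrays for 25 genes (24.4% of all probe sets), and all 8 wild-type arrays were above all 4 green det2 arrays for 18 (11.3% of all probe sets). The rule holds green det2 low, so it shapes these counts too, and they are given as a description of the levels. AT1G20390, AT2G06480 and AT2G42560 are the 3 genes whose dark-grown Col arrays overlapped the green det2 arrays. For the other 25 the order was green det2 lowest, dark-grown Col between, and dark-grown det2 with the highest mean of these 4 groups.

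PAP85 (AT3G22640) encodes a vicilin-like seed storage protein. It read 3220.4 and 3312.5 units in dark-grown det2, 55.3 and 60.1 in light-grown det2, and 37.7 and 33.1 after 8 h of darkness. In dark-grown Col it read 686.4 and 2362.4. BL-treated Col gave 233.8 and 958.9 units before light and 685.9 and 1455.1 after it, and untreated Col moved to light gave 786.2 and 1185.3. Every Col array was above every green det2 array, and the det2 excess over dark-grown Col was 2.22 (log2) against replicate 1 and 0.46 against replicate 2.

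Of the 5 members with a gene name, 2 are named as LEA genes, and their patterns in wild type differed. The members known only by locus were not sorted into families here. AtLEA4-1 (AT1G32560) read 1147.2 and 1049.4 units in dark-grown det2, 29.5 and 10.1 in light-grown det2, 49.5 and 91.8 in dark-shifted det2, and 148.3 and 337.7 in dark-grown Col. Its other 6 Col arrays lay between 48.1 and 254.6. LEA4-5 (AT5G06760) read 951 and 949.8 units in dark-grown det2, at most 24.9 on the 4 green det2 arrays, and 191.5 and 683.3 in dark-grown Col. After 2 h of light it read 1274.3 and 4124.5 in untreated Col and 1860.6 and 2019.8 in BL-treated Col. All 4 of those arrays were above dark-grown det2, so LEA4-5 was the 1 member whose highest group mean was not in dark-grown det2.

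ATOEP16-2 (AT4G16160), also listed as ATOEP16-S, belongs to a family of pore proteins of the outer plastid envelope. It read 399 and 415.1 units in dark-grown det2, 98.4 and 331.9 in dark-grown Col, and at most 46.6 on the green det2 arrays. In BL-treated dark Col it read 4.4 and 138.7, so the first of these arrays was below all 4 green det2 arrays and the second was above them.

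BGLU19 (AT3G21370), a beta-glucosidase gene, read 3093.8 and 3407.7 units in dark-grown det2 and between 66.3 and 95.5 on the 4 green det2 arrays. Dark-grown Col read 893.3 and 963.8. The det2 excess over Col was 3.46-fold on the log2(signal + 16) scale and nearly the same against either Col array, at 1.84 and 1.74 (log2). The Col groups moved to light read 576.3 and 645.2 without BL and 331.5 and 375 with it. This difference did not pass the test (limma, adjusted p = 0.27). BL-treated dark Col read 275.8 and 785.8. AT3G21380 lies close to BGLU19 in the RefSeq gene table (assembly TAIR10.1), with 1 other gene starting between them, and was chosen as well. It read 496.5 and 466.2 units in dark-grown det2, 145 and 187.2 in dark-grown Col, and at most 46.9 in green det2.

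**Figure D2:**
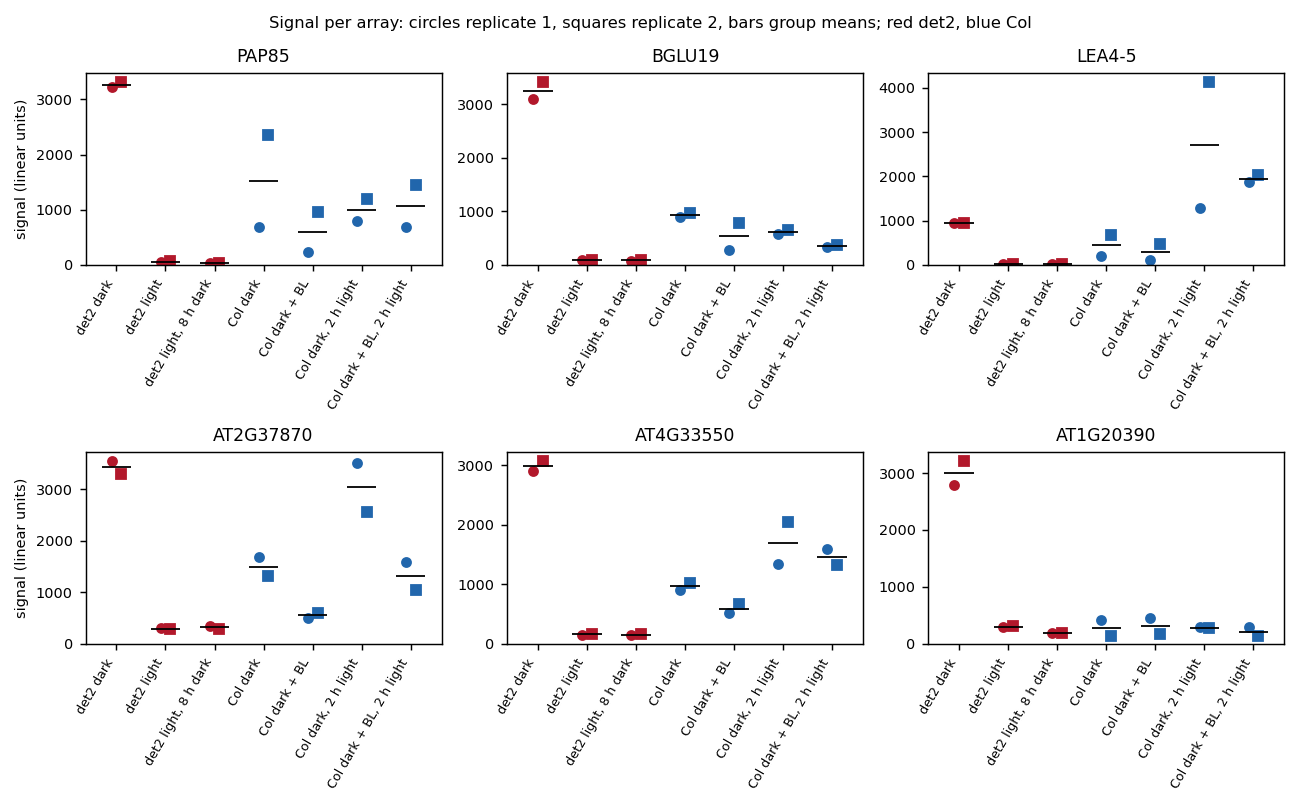
Signal (linear units) of 6 genes on each array, by group, with det2 in red, Col in blue, circles for replicate 1, squares for replicate 2 and bars for group means. PAP85 has the dark-grown Col arrays apart at 686.4 and 2362.4 units, LEA4-5 reaches 4124.5 in Col moved to light, and AT1G20390 stays at or under 452.8 on every array outside dark-grown det2.

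The other 23 members carry only a locus identifier here, and no role is given to them. The largest excesses over dark-grown Col were those of AT2G06480 (3.64, log2), AT1G20390 (3.58), AT5G10120 (3.23), AT2G42560 (3.22), AT3G53040 (2.84), AT4G21020 (2.80) and AT2G21820 (2.76). AT5G10120 read 922.3 and 890.8 units in dark-grown det2 and 80.3 and 84.2 in dark-grown Col, with 37.7 and 42.8 in BL-treated dark Col. Its Col arrays were close together, so the excess was 3.26 against replicate 1 and 3.20 against replicate 2. AT2G21820 read 2133.9 and 2161.3 units in dark-grown det2 and 138.7 and 639.5 in dark-grown Col, and its excess was 3.81 against replicate 1 and 1.72 against replicate 2. AT3G53040 read 898.5 and 1085.4 units in dark-grown det2 and 86 and 177.1 in dark-grown Col, and AT4G21020 read 982.5 and 895.6 against 93.4 and 155.2. In both, the Col arrays were at most 199.3 units under every treatment, and the green det2 arrays were at most 34.2. AT2G42560 read 294.7 and 361 units in dark-grown det2 and at most 79.6 on any other array.

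Other locus-only members stood closer to wild type. AT1G16850 read 793.5 and 799 units in dark-grown det2, 261.7 and 499.3 in dark-grown Col, and 357.6 and 853.7 in untreated Col moved to light, where 1 array was above dark-grown det2. AT5G45690 read 793.3 and 805.8 in dark-grown det2 and 178.1 and 840.6 in dark-grown Col, so the genotypes overlapped. AT3G19920 overlapped too, at 453.8 and 311.7 against 86.7 and 341.1. For these 3, the green det2 arrays were at most 65.7 units, below both dark-grown Col arrays.

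For AT3G17520, AT2G38905, AT2G25890, AT5G07330, AT4G31830, AT3G58450 and AT1G54860, both dark-grown det2 arrays were above all others and replicate 2 of dark-grown Col was above replicate 1. AT3G17520 had 1586.5 and 1283.9 units in dark-grown det2, 320.8 and 578.3 in dark-grown Col and 8.5 and 32.5 in light-grown det2. AT4G31830 stood at 609.7 and 584.8 in dark-grown det2, 48.3 and 275.6 in dark-grown Col, and 14.1 and 89 with BL in the dark. AT1G54860 had 271 and 274.1 in dark-grown det2 and 53.3 and 250 in dark-grown Col. For each of these 3, the dark-grown det2 arrays lay closer together on the log2 scale than the dark-grown Col arrays.

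RefSeq classes 3 of the 28 members as pseudogenes, AT1G20390, AT2G06480 and AT2G06390, a share of 10.7% against 1.54% of the 9792 nuclear probe sets with 1 gene and the same minimum signal. This share rests on 3 genes, of which AT2G06480 and AT2G06390 lie 53524 bp apart on chromosome 2. AT1G20390 read 2788.8 and 3213 units in dark-grown det2, 300.9 and 305.8 in light-grown det2, and 418 and 129.8 in dark-grown Col. It was the 1 member whose replicate 2 lay below replicate 1 in all 4 Col groups (19.2% of all probe sets). AT2G06480 read 575.2 and 591.7 units in dark-grown det2, 33.4 and 30.9 in dark-grown Col, and between 3.1 and 13.1 on the other 6 Col arrays. Its probe set is of the kind marked as shared with similar sequences, so signal from related copies cannot be told apart. AT2G06390 read 254.7 and 181.6 units in dark-grown det2 and at most 96.8 elsewhere. For these 3 the median of dark-grown Col minus light-grown det2 was 1.11 (log2), against 2.73 for the 25 protein-coding members.

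How far dark-grown det2 stood above dark-grown Col depended on the Col array. Against replicate 1 all 28 genes were higher by at least 1 (log2), with a median of 2.22. Against replicate 2 alone, 18 were higher by at least 1 and the median was 1.24. The 10 that fell short were PAP85, LEA4-5, ATOEP16-2, AT3G01570, AT2G38905, AT2G25890, AT5G45690, AT1G16850, AT3G19920 and AT1G54860, and AT5G45690 stood at -0.07. AT3G01570, for example, read 1714.2 and 2051 units in dark-grown det2 but 489 and 1576.3 in dark-grown Col. When the rule was applied to the replicate 1 arrays alone it chose 40 genes, of which 37 met the light condition, 35 the dark-shift condition and 18 the Col condition in the replicate 2 arrays, and 14 met all 3. Applied to the replicate 2 arrays alone it chose 15 genes, of which 14 met all 3 in the replicate 1 arrays. The minimum signal was taken over all 14 arrays in both cases. Replicate 1 was the lower dark-grown Col array for most members, which makes the Col condition easier to meet there. These counts are therefore a description and not a replication of the choice. Of the 3 conditions, the one against Col was met by the fewest of the 40 genes.

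**Figure D3:**
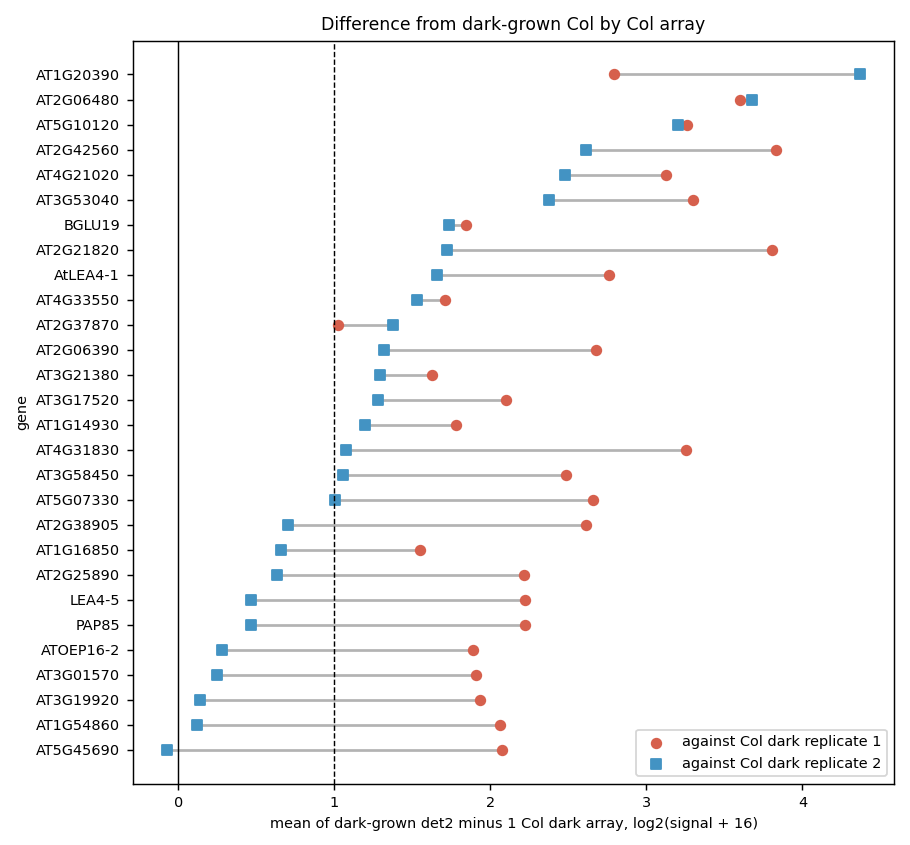
For each gene, the mean of dark-grown det2 minus 1 array of dark-grown Col, in log2(signal + 16), with circles for Col replicate 1 and squares for replicate 2. The dashed line marks the minimum of 1, which 28 genes reach against replicate 1 and 18 against replicate 2.

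At the edge of the rule, the members just inside were AT5G45690 (1.0 above dark-grown Col), AT2G42560 (3.02 above light-grown det2), AT3G19920 (1.03 above Col) and AT3G01570 (1.08 above Col). Just outside were AT1G48660 (0.998 above Col), AT5G44310 (2.95 above dark-shifted det2), AT1G72100 (0.929 above Col) and IAA20 (0.919 above Col), an auxin response gene. All 8 lay within 0.081 of a limit, less than the median gap of 1.29 between the dark-grown Col arrays of the members.

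The effect of BL in Col moved to light was tested on arrays that the 3 differences did not use. AT2G37870 fell by 1.21 ± 0.22 (log2, SE) with BL (limma, adjusted p = 0.00771). It read 3509.6 and 2568.3 units without BL and 1589.7 and 1044.7 with it, and the groups did not overlap. This was the only call among the 28 genes, 1 lower and 0 higher, or 3.57%, where 4.25% of all 17788 probe sets passed, 2.08% as lower and 2.17% as higher. At an unadjusted p under 0.05 there were 2. Of the 28 genes 21 were below 0, with a median of -0.27 against 0.08 over all probe sets. The share called was thus near the background. A member that missed the threshold could have a wide interval, and that of LEA4-5 ran from -1.63 to 1.15. AT2G37870 no longer passed without replicate 2 of the BL-treated arrays (adjusted p = 0.0773), without replicate 1 of the untreated arrays (adjusted p = 0.0715), or with wild-type arrays alone (adjusted p = 0.0651).

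Light for 2 h in BL-treated Col was the other comparison outside the rule, and 3 of the 28 genes rose while 0 fell. LEA4-5 rose by 2.95 ± 0.64 (log2, SE; limma, adjusted p = 0.00615), from 112.5 and 479 to 1860.6 and 2019.8 units. AT4G33550 rose by 1.29 ± 0.21 (adjusted p = 0.000716), from 512.5 and 668.9 to 1597.9 and 1324.9. AT2G37870 rose by 1.2 ± 0.22 (adjusted p = 0.00183), from 504.7 and 601.2 to 1589.7 and 1044.7. In all 3 the groups did not overlap. These 3 are 10.7% of the members, against 17.3% of all probe sets in either direction, 8.97% as higher and 8.38% as lower. At an unadjusted p under 0.05 there were 4. Of the 28 genes 23 were above 0, with a median of 0.71 against -0.06 over all probe sets. The BL-treated light arrays served in both tests, so the results are not independent.

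The 2 tests above did not pair arrays by replicate number. A fit to wild-type arrays alone took the replicate number as a block. There, 8 of the 28 members rose with light in BL-treated Col and 0 fell. In this fit 19.8% of all probe sets were called in either direction, and the share called as higher alone was not taken. The further 5 were PAP85 (1.04, adjusted p = 0.0301), AT2G21820 (1.38, adjusted p = 0.0207), AT3G01570 (1.1, adjusted p = 0.0244), AT3G58450 (1.02, adjusted p = 0.0413) and ATOEP16-2 (1.39, adjusted p = 0.019), all by limma. The count with BL in light stayed at 1. LEA4-5 was lost without replicate 1 of the dark BL-treated arrays (1.98, adjusted p = 0.0724), where BGLU19 passed as lower (-1.12, adjusted p = 0.00587). Without replicate 2 of those arrays 7 members passed as higher, where 11.2% of all probe sets passed in either direction.

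**Figure D4:**
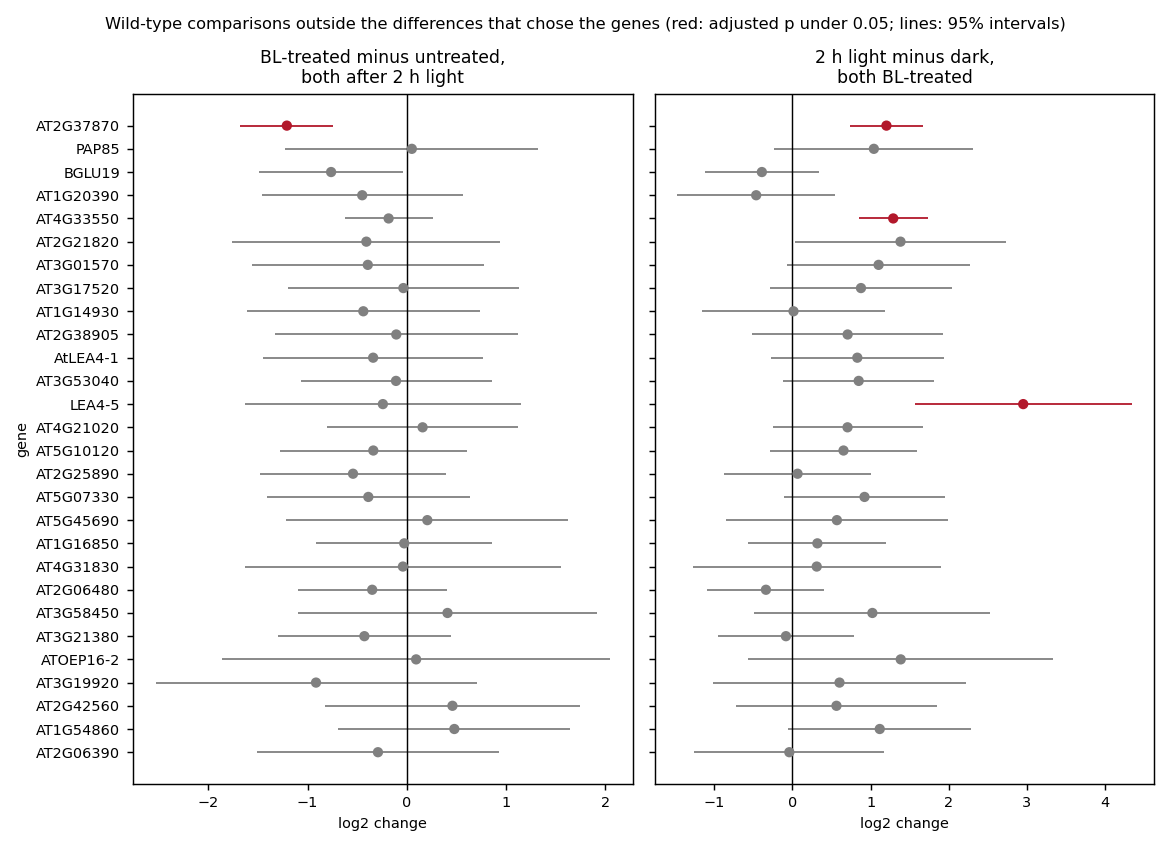
Log2 change of each gene (point) with its 95% interval (line) for BL in Col moved to light (left) and for 2 h of light in BL-treated Col (right), with red for adjusted p under 0.05. On the left AT2G37870 alone is red at -1.21, and on the right LEA4-5, AT4G33550 and AT2G37870 are red at 2.95, 1.29 and 1.2.

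Comparisons that share the dark-grown Col arrays with the rule are given as values without a test. With BL in the dark, 24 of the 28 genes were below 0, with a median of -0.98 (log2) against 0.05 over all probe sets, and 14 were at or under -1. The sign held within both replicate numbers for 23 genes (28.1% of all probe sets), with medians of -0.98 within replicate 1 and -0.76 within replicate 2. Both BL-treated arrays were below both untreated arrays for 6 genes, AT2G37870, BGLU19, AT4G33550, AT1G14930, AT5G10120 and AT2G06480, or 21.4% of the members against 18.3% of all probe sets. The lowest wild-type group mean was that of BL-treated dark Col for 21 of the 28 genes. AT1G14930, for example, read 374.6 and 568.2 units in untreated and 132.4 and 366.8 in BL-treated dark Col, with 1334.1 and 1312.2 in dark-grown det2.

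With 2 h of light in untreated Col, 13 of the 28 genes were above 0 and 15 below, with a median of -0.04 against -0.12 over all probe sets. Both light arrays were above both dark arrays for LEA4-5, AT2G37870 and AT4G33550, or 10.7% of the members against 20.6% of all probe sets. These are the genes that rose with light in BL-treated Col as well. LEA4-5 stood at 2.60 (log2) and was followed by AT2G37870 at 1.01 and AT4G33550 at 0.78. AT4G33550 read 900.8 and 1023.9 units in the dark and 1335.8 and 2050.4 after light. Within replicate 1 the median over the members was 0.26, with 18 above 0, and within replicate 2 it was -0.43, with 7 above 0, so the members had no common direction.

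After 8 h of darkness in green det2 the members stayed low, as the rule requires. Of the 28, 14 were above and 14 below light-grown det2, with a median of 0.01 (log2). AT2G06480 stood at 1.49, read 56 and 38.3 units after darkness and 7 and 5.5 in light, and AtLEA4-1 stood at 1.29. The dark-shifted seedlings were 14 days old and the others 7, so age and darkness cannot be told apart here.

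The gene lists were read beside the members. Of 13 listed LEA genes 4 were measured, here meaning a named probe set with a mean of at least 50. Of these 4 only LEA4-5 is a member of the 28. The member AtLEA4-1 is not on this list, so the list does not count the LEA genes among the members. M17 was left out by name, and LEA76 and M10 met the conditions within det2 but stood at 0.90 and -0.73 (log2) from dark-grown Col. With light in BL-treated Col 1 of the 4 rose, LEA4-5, and 0 fell, while with BL in light none passed (limma). Of 13 listed storage protein and oleosin genes 2 were measured, and the others had no named probe set. The member PAP85 is not on this list, and members known only by locus were not sorted into families. The list therefore does not count the storage protein or oleosin genes among the members. OLEO3, an oil-body protein gene, differed from light-grown det2 by 4.05 and from dark-grown Col by 0.19, and CRU2, of the cruciferin storage proteins, by 1.89 and 1.01. ICL, the isocitrate lyase gene of seed oil use, differed by 4.03 from light-grown det2 and by 0.91 from dark-grown Col. All 3 were thus higher in dark-grown than in light-grown det2 but missed at least 1 of the conditions. Of the abscisic acid, starvation, shade, defence, green tissue and root lists, none of the measured genes was a member, and 0 of the 8 brassinosteroid and 0 of the 9 wax genes were measured. With light in BL-treated Col, where 8.97% of all probe sets passed as higher and 8.38% as lower, 1 of the 2 storage and oleosin genes fell, OLEO3 (-0.89, limma adjusted p = 0.0315). Under the same test 7 of the 8 green tissue genes rose, 1 of the 2 abscisic acid genes rose, 2 of the 3 starvation genes fell and both shade genes fell. The 2 seed oil genes, the 1 defence gene and the 2 root genes did not pass. With BL in light the 1 call among all these lists was a starvation gene, IVD, which fell by 0.87 (limma adjusted p = 0.0167).

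Most genes next to a member in the RefSeq table were not measured, and most of those measured did not share the det2 difference. Of 56 neighbours looked up, 20 had a named probe set above the minimum signal, and their median difference between dark-grown and light-grown det2 was 0.09 (log2). The 1 neighbour with a difference of at least 3, which 0.714% of all probe sets had, was AT1G54870 (4.56). It lies next to AT1G54860 and is left out by name. AT1G54870 had a mean of 1314.25 units in dark-grown det2, 44.5 in light-grown det2 and 1073.8 in dark-grown Col. The 7 genes left out by name that met the conditions, M17 and LEA18 among them, had a median excess of 1.74 (log2) over dark-grown Col and of 6.60 over light-grown det2, against 1.67 and 4.46 for the members. In these 7 as in the members, replicate 2 of dark-grown Col was the higher array, in 7 of 7.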

How the data were processed

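The authors deposited 1 table of linear intensity values for 22810 probe sets on 14 arrays. Per the submitters' processing notes, MAS5 and limma were used (versions not given). With 2% trimmed from either end, each array averaged 500, so the values had been scaled before deposit, and they were used unchanged. The number of arrays limits the precision, and no detection calls were used.

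Groups came from the sample titles. After removal of 64 control probe sets, those averaging 50 or more were tested as log2(value + 16) in 1 linear model with a mean per group (limma 3.58.1, R 4.3.3, variance trend), with Benjamini-Hochberg adjustment over 17788 probe sets within each of 2 comparisons and 0.05 as the threshold. The fit was tested on simulated data. Differences between the 4 groups of the rule were not tested. The members and lists were chosen with earlier results of these data known. Of the probe sets, 13513 have 1 gene, 503 several and 8730 none in the platform annotation, and 13436 matched RefSeq. Promoter motifs were not analysed, as no sequence was used. The text names the 24 members with the strongest signal in dark-grown det2, those called, those at the edges of the rule, and members of lists. Sharing a product name could not be applied as a further ground. Deviations from group means of same-numbered arrays correlated at 0.227 to 0.429 between wild-type groups and at -0.033 to 0.016 between det2 groups. The title numbers were therefore read as pairing wild-type arrays alone. The main fit did not use this pairing, so the gap between replicate numbers stayed in its estimate of spread. Alternatives were other constants, filters, normalization, arrays and a replicate block. Figures were drawn with matplotlib 3.10.9.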

Additional observations from a re-analysis of the deposited data

How the results depend on the processing

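The rule found 28 genes, and 28 with quantile normalization, of which 25 were shared, 36 with a constant of 1 and 19 with 64. It found 49 probe sets when those without a listed gene were added, and 15 on the replicate 2 arrays alone against 40 on the replicate 1 arrays. Leaving out 1 array gave 18 to 35, with 18 without replicate 1 and 35 without replicate 2 of dark-grown Col. The count called with BL in light (limma) was 0 with wild-type arrays alone, where 1.2% of all probe sets passed and 1 member had an unadjusted p under 0.05. With an array left out, the change of AT2G37870 with BL in light ranged from -1.51 to -0.91 (log2). With light in BL-treated Col it was 8 with wild-type arrays alone and the replicate block, 3 with all arrays and the replicate block, and 3 to 7 with an array left out. The causes were not tested.

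Among members that passed the test under some setting, 5 changed sign with light in BL-treated Col when an array was left out. Their changes over the arrays left out ranged from -0.039 to 1.79 for AT3G17520, from -0.057 to 1.72 for AtLEA4-1, from -0.19 to 2.24 for AT3G58450, from -0.075 to 2.85 for ATOEP16-2 and from -1.12 to 0.34 for BGLU19. Among members that passed under no setting, 19 of 27 changed sign with BL in light and 11 of 17 with light in BL-treated Col, 1 of each also under a setting that kept all arrays. The replicate block changed no call other than those given. Signals near or under 16 units limit the folds within det2.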

Other observations

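The 21 probe sets without a listed gene that met the same conditions had a median excess of 1.53 (log2) over dark-grown Col and 5.51 over light-grown det2. With BL in dark-grown Col 20 of 21 were lower, with a median of -1.25, where 56.4% of all probe sets were above 0. That comparison shares the dark-grown Col arrays with the conditions and was not tested. In 19 of the 21, replicate 2 of dark-grown Col was above replicate 1. The 5 organelle-encoded probe sets that met the conditions, with rpl20, rps15, psbN and ndhF among them, differed in their wild-type level. Their median excess over dark-grown Col was 3.83, against 1.67 for the 28 nuclear genes. Dark-grown Col stood a median of 0.30 above light-grown det2, against 2.64. For rpl20 and rps15 the mean signal was lower in dark-grown Col than in light-grown det2, and for the others it was higher. Replicate 2 of dark-grown Col was above replicate 1 in all 5, with a median gap of 2.23 (log2), so these values depend on the Col array.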
